A study of Rattus norvegicus with 18 samples.

Results

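Proximal nerve segments taken 1 h after transection of the sciatic nerve were compared with segments of the 0 h group, on 6 of the 18 arrays of the study. The members were taken by time-point from the labels, 3 arrays of 1 h and 3 arrays of 0 h, and every probe that is not a control was used. All rats were adult male Sprague-Dawley rats that were anaesthetized and had a piece of the left sciatic nerve cut out above its division in the thigh, and the tissue measured was the stump on the side of the spinal cord. The groups differ only in the labelled time to tissue collection, 0 h or 1 h, and the labels name no sham-operated group. The labels do not say whether an array held the RNA of a single rat or of a pool. The P-values below rest on the spread between arrays of a time-point, taken over all 18 arrays, which may be partly technical. The 0 h arrays lay together on 1 slide and were scanned on the first of 3 scan days, and the 1 h arrays lay on another slide and were scanned on the second day, so slide and scan day cannot be told apart from time in this comparison.

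Cutting a peripheral nerve tears axons, Schwann cells and blood vessels and exposes the resident cells to plasma, calcium entry and cell debris. Cells answer such signals first with immediate early genes, whose promoters are poised and whose transcripts appear before any new protein is made. Many of these genes encode transcription factors of the AP-1, Egr and Nr4a families, which act on slower genes, while others encode cytokines and chemokines that call leukocytes from the blood, and inhibitors that shut the signal down again. In a bulk nerve sample, fewer cells of a type and less RNA per cell cannot be told apart.

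Levels are log2 processed signals from which the 75th percentile of the array was taken off, so that a level of 0 stands for the 75th percentile itself. Of the 41012 probes, 32109 probes of 27182 genes were tested, namely those that exceeded background clearly on every array of some time-point. Well above background were 74.3% to 76.9% of the spots on the 0 h arrays and 68.8% to 71.4% on the 1 h arrays. The correlation over probes was 0.987 to 0.993 between 0 h arrays, 0.986 to 0.991 between 1 h arrays and 0.975 to 0.985 between the groups. Array 1 of 0 h stood apart in skeletal muscle genes, with a summed level of 14 muscle markers of 1948.6 (in units of the 75th percentile) against 116.6 and 166.0 on the other 0 h arrays and 7.8, 13.3 and 107.0 on the 1 h arrays. Their part in the results was not tested, and the counts are given with and without that array.

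At 1 h, 1656 genes had changed against 0 h, which is 6.09% of the genes tested. Calls came from limma, which had to give any probe of the gene P under 0.01, and under 0.05 once adjusted by the method of Benjamini and Hochberg. Of these, 1058 genes were higher at 1 h (3.89%) and 601 were lower (2.21%), with 3 genes called in both directions by different probes. By fitted difference, rises were larger than falls. Among genes called on their reported probe, 508 of 976 rises were at least 2-fold and 83 at least 4-fold, with a median of 1.02 on the log2 scale. Of the 555 falls, 72 were at least 2-fold and 6 at least 4-fold, with a median size of 0.60. These sizes include probes that were not well above background in 1 of the groups. The lowest values well above background were -6.76 to -6.33 on the 0 h arrays and -5.75 to -5.37 on the 1 h arrays. The part of these limits in the sizes was not tested. On the reported probes of all genes, the 3 arrays of 1 h lay above the 3 of 0 h for 5134 genes (18.9%) and below them for 3157 (11.6%).

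The count of called genes rested on single arrays. It was 1004 without array 1 of 0 h (557 higher and 449 lower), 774 without array 2 of 0 h (537 and 237), 866 without array 3 of 0 h (543 and 323), 896 without array 1 of 1 h (572 and 324) and 895 without array 3 of 1 h (596 and 299), but 1582 without array 2 of 1 h. The split between rises and falls moved with the scaling. Higher genes made up 63.8% of the called genes here, 46.4% with quantile normalization (727 higher, 841 lower), 48.9% in the deposited matrix (747 and 780) and 36.6% with a shift to the median (848 and 1467). With normexp background correction 82.0% were higher (168 and 37), and with a fit of only the 6 arrays 88.5% (2497 and 324). The differences varied with brightness. When genes were put into 6 classes of equal size by mean level, the median difference was 0.29 in the dimmest class and fell through 0.17, 0.07 and -0.01 to -0.04 and -0.06 in the brightest, beside a median of 0.02 over all genes.

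**Figure D1:**
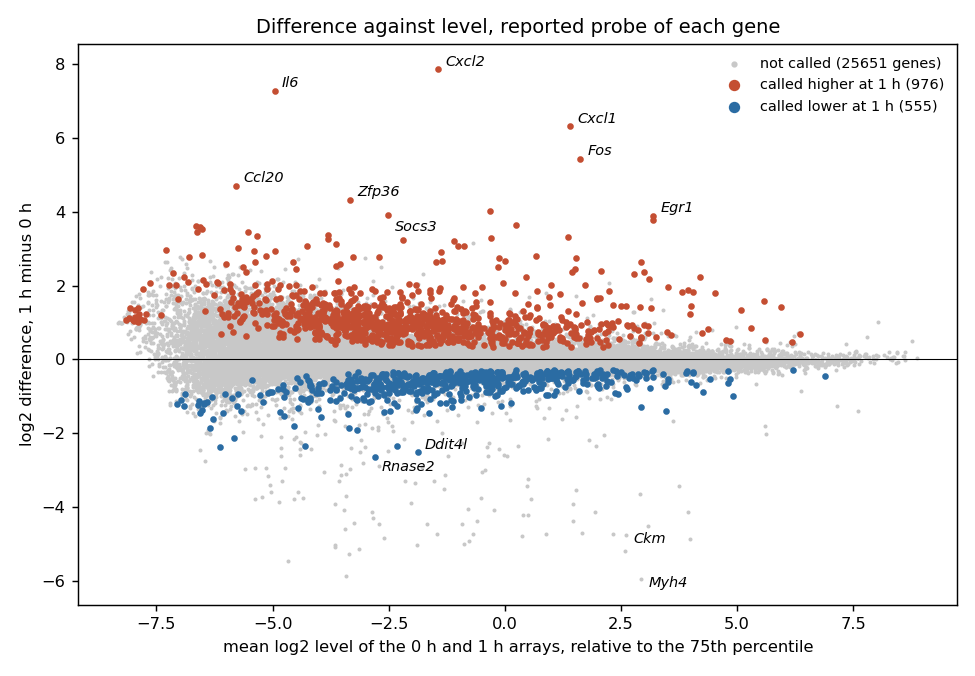
The log2 difference between 1 h and 0 h (vertical axis) against the mean log2 level of the 6 arrays relative to the 75th percentile (horizontal axis), 1 point for the reported probe of each gene, with 976 called rises in red, 555 called falls in blue and genes not called in grey. The rises reach 7.85 for Cxcl2 while the falls reach -2.64 for Rnase2, and the grey points far below 0 include the muscle genes Ckm and Myh4, which differed by -4.77 and -5.95 and did not pass the test.

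The largest rises are described for genes with a symbol in the reference table whose 3 arrays of 1 h all lay above the 3 of 0 h. By fitted difference the 3 largest were those of secreted signals. The place of Il6 among them rests on dim 0 h arrays, and its lower bound of 36.4-fold is under the 43.2-fold of Fos. Cxcl2, a chemokine that attracts neutrophils, lay at -5.18, -5.74 and -5.14 on the 0 h arrays and at 2.38, 2.38 and 2.73 on the 1 h arrays, a rise of 7.85 on the log2 scale with a standard error of 0.25 (231-fold, adjusted P = 3.37e-10). Il6, the cytokine interleukin 6, was not well above background on any 0 h array (-8.81, -8.55 and -8.42) and lay at -1.96, -0.69 and -1.31 at 1 h, at least 36.4-fold higher (adjusted P = 1.01e-09). Such bounds set each dim array at the higher of the probe's own value and the lowest value among the probes well above background on that array. Cxcl1, which shares its receptor with Cxcl2, lay at -1.82, -1.79 and -1.64 at 0 h and at 4.57, 4.8 and 4.31 at 1 h, 79.4-fold higher (adjusted P = 3.37e-10). For all 3 genes the lowest 1 h array was far above the highest 0 h array. The Cxcl1 and Cxcl2 probes lie near each other on rn4, at chr14:18690468-18690527 and chr14:18677236-18677295.

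Among CC chemokines, Ccl20 was not well above background at 0 h on any array (-8.47, -7.28 and -8.66) and reached -4.03, -3.05 and -3.25 at 1 h, at least 8.36-fold higher (adjusted P = 0.000174). Ccl2, the main attractant of monocytes, was already bright at 0 h with 1.17, 1.23 and 1.55 and stood at 4.64, 5.37 and 5.22 at 1 h, 13.6-fold higher (adjusted P = 9.92e-07). These groups did not overlap.

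Nuclear and signal-limiting genes were also among the 15 largest rises, between the chemokines above and Has1 below in size. Fos, the founding subunit of AP-1, stood at -1.60, -0.10 and -1.59 at 0 h and at 4.48, 3.96 and 4.57 at 1 h, 43.2-fold higher (adjusted P = 9.25e-07). Array 2 of 0 h was the highest of its group for Fos, Egr1 and Junb, and remained below every 1 h array. Egr1, a zinc finger transcription factor, had 0.97, 2.05 and 0.74 at 0 h and 5.21, 5.35 and 4.85 at 1 h, 14.8-fold higher (adjusted P = 5.47e-06). Junb, which pairs with Fos proteins, had -1.59, -1.17 and -2.00 at 0 h and 2.19, 1.86 and 2.13 at 1 h, 12.5-fold higher (adjusted P = 5.84e-06). The early class of rises also held negative regulators. Zfp36 (tristetraprolin), which binds AU-rich elements and speeds the decay of cytokine transcripts, rose from -5.68, -5.40 and -5.37 to -0.99, -1.23 and -1.29 (19.9-fold, adjusted P = 9.25e-07). Socs3, which blocks signalling of the interleukin 6 receptor family, rose from -4.43, -4.55 and -4.46 to -0.92, -1.05 and 0.29 (15.1-fold, adjusted P = 1.02e-05), with array 3 of 1 h above the others.

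The Fos and Junb levels each come from a single probe of 60 bases, shown here as the file gives it with its place on rn4, because these probes are what was measured for the AP-1 genes that rose most.
Fos probe, chr6:109561099-109561158, plus strand: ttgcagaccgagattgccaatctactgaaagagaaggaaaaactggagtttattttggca
Junb probe, chr19:24832781-24832840, plus strand: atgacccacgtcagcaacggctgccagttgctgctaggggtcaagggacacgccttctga

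The other genes among the 15 largest rises were more mixed, and are not all smaller than those above. Has1, a hyaluronan synthase, rose from -2.40, -2.02 and -2.56 to 1.11, 2.0 and 1.97 (16.2-fold, adjusted P = 1.02e-05). Apold1, an early gene of activated endothelium, had 0.74, 0.12 and -1.75 at 0 h and 3.03, 3.16 and 2.84 at 1 h (9.89-fold, adjusted P = 0.000652), so its 0 h arrays were far apart and its 1 h arrays close. Without array 3 of 0 h the difference of Apold1 was 2.58 on the log2 scale in place of 3.31. Another 3 genes were not well above background on any 0 h array. Mmp8, a neutrophil collagenase, lay at -8.46, -8.39 and -8.18 at 0 h and at -5.28, -5.05 and -4.36 at 1 h, where 2 of 3 arrays were above background, and was at least 3.05-fold higher (adjusted P = 0.000987). Csta, a cystatin that inhibits cysteine proteases, was at least 3.35-fold higher (adjusted P = 0.000165), from -8.10, -8.58 and -8.38 to -4.52, -4.80 and -4.96, while its other tested probe differed by 1.30 and was not called (adjusted P = 0.375). Or2c1, an olfactory receptor named Olr1356 in the files, was at least 3.2-fold higher (adjusted P = 0.0263), from -7.99, -8.63 and -8.75 to -4.65, -4.60 and -5.23, and it alone of the 15 largest rises lost its call when an array was left out, whichever of the 6 arrays it was (adjusted P up to 0.0831). With normexp, another correction for background, Or2c1, Ccl20 (1.92, adjusted P = 0.205), Csta (1.48, adjusted P = 0.240) and Mmp8 (1.49, adjusted P = 0.264) did not pass. Of the 15 rises, 12 belong to the lists described below, and of the 10 largest falls 0 do.

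**Figure D2:**
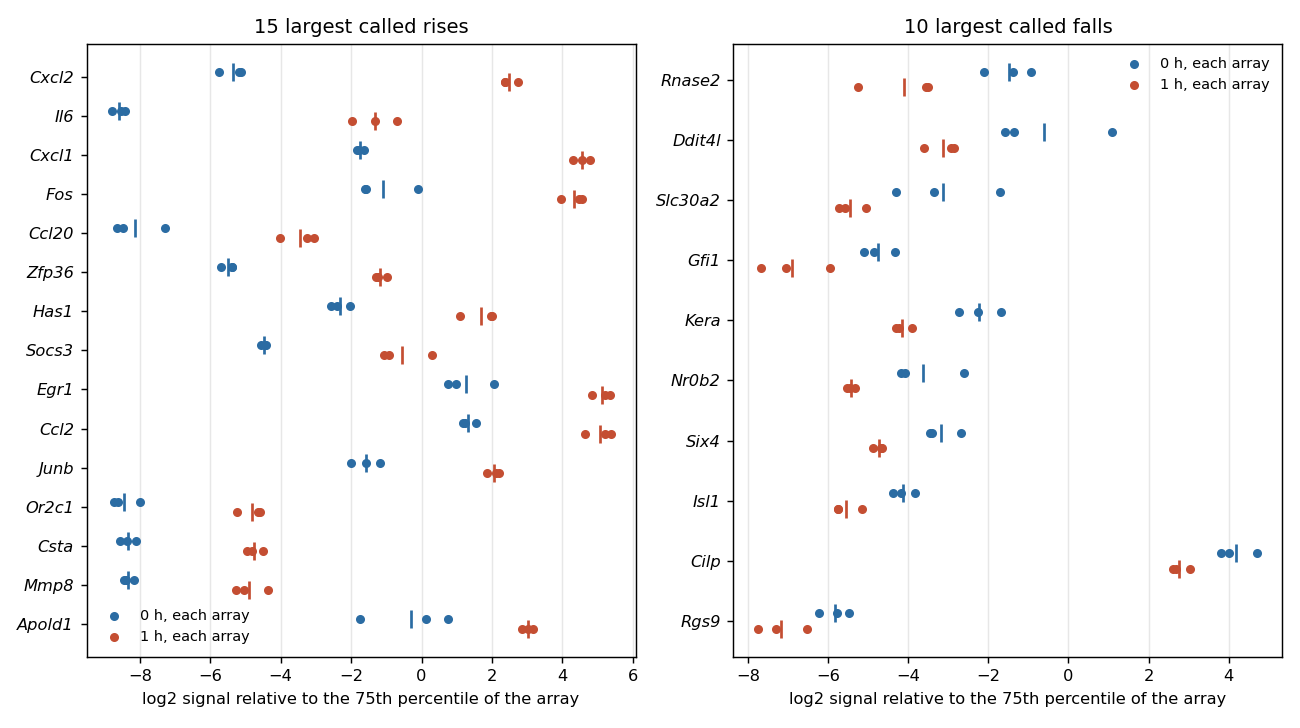
Log2 level relative to the 75th percentile of the array (horizontal axes) on each array of 0 h (blue points) and 1 h (red points), with a bar at each group's mean, for the 15 largest called rises (left) and the 10 largest called falls (right). The 0 h and 1 h arrays of each gene do not overlap, as the rule for choosing them required, and the distance is greatest for Cxcl2, with a highest 0 h array of -5.14 and a lowest 1 h array of 2.38.

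To see how far whole groups of genes moved, 25 lists of 570 genes were described, of which 526 were tested. In these lists 106 genes rose and 7 fell, so 113 were called, or 21.5% against 6.09% of all genes tested. The lists were chosen with earlier results of these data in view, and the shares are a description. In 19 of the 25 lists no gene was called lower, but only 2.21% of all genes were, so a short list often holds none. The counts of each list below stand against 3.89% of all genes called higher and 2.21% called lower. The count was 98 without array 1 of 0 h and between 86 and 106 over the 6 arrays left out in turn. With normexp it was 56, and 108 with normexp without array 2 of 1 h and array 2 of 3 h. Calls lost with normexp include those of Fosb, Klf6, Khsrp, Dusp2, Spry1, Sgk1, Tnfsf9, Icam1 and Cflar, each of which was called again without these arrays.

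The AP-1 subunits had the highest median of the 25 lists. Of 12 tested, 10 rose, with a median difference of 1.76 on the log2 scale against 0.02 for all genes, and Jdp2 (0.50) and Batf (-0.09) did not pass the test. Atf3, a stress-induced factor that marks injured neurons and Schwann cells, rose from 2.88, 3.10 and 3.30 to 5.31, 5.38 and 5.26, a rise of 2.23 with a standard error of 0.12 (adjusted P = 3.37e-07). Jun, which Schwann cells need for their repair state, rose from 2.98, 3.33 and 2.71 to 5.16, 4.88 and 4.64 (3.70-fold, adjusted P = 1.91e-05). In both genes the 3 arrays of a group lay close together. Fosl1 rose by 1.84 (adjusted P = 0.00135), Fosl2 by 1.68 (0.00954), Fosb by 1.5 (0.00135) and the small Maf protein gene Mafk by 0.85 (0.0119). Maff (2.09, adjusted P = 0.0199) and the reported probe of Jund (0.52, adjusted P = 0.0275) passed as well, but lost their calls when 3 or 4 of the 6 arrays were left out in turn, with adjusted P up to 0.0821 and 0.0983, and Mafk when array 2 of 0 h was (0.0568). Maff was not well above background on all of the 6 arrays, and its difference went down to 0.60 among the alternatives. Another probe of Jund rose by 1.02 (adjusted P = 0.00297) and the remaining probe differed by 0.52 and did not pass (adjusted P = 0.0688). Here and below, a call said to be lost without an array is that of the reported probe. The list had 10 calls without array 1 of 0 h.

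Of the 9 Egr and Nr4a genes, 6 rose and none fell, with a median of 1.43. Nr4a1, an orphan nuclear receptor, had 5.34, 5.36 and 4.97 at 0 h and 6.59, 6.62 and 6.75 at 1 h, 2.69-fold higher (adjusted P = 5.84e-06). Nr4a3 was low and scattered at 0 h (-0.68, -2.26 and -2.90) and tight at 1 h (0.99, 1.67 and 1.39), 9.81-fold higher (adjusted P = 0.000517). Without array 1 of 0 h the difference of Nr4a3 was 3.93 on the log2 scale in place of 3.29. Egr2, the factor that drives myelin genes in Schwann cells, rose from 3.47, 3.23 and 3.18 to 4.98, 4.82 and 4.38 (2.70-fold, adjusted P = 0.000332). Nr4a2 rose by 1.12 (adjusted P = 0.00189). Egr4 rose by 3.07 but was well above background on 2 of 3 arrays at 0 h and lost its call without any single 1 h array (adjusted P up to 0.0735), and its difference was 1.82 without array 3 of 0 h and 3.82 without array 2. Egr3 differed by 1.63 and did not pass (adjusted P = 0.0657), nor did the Egr corepressors Nab1 (0.21) and Nab2 (-0.17).

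Promoters of the list genes, called or not, and of the largest rises and falls were searched in a RefSeq table (build GRCr8). It holds the 250 bases before and 50 bases after each start site. The letters searched on both strands were the cyclic AMP response element TGACGTCA, which is the same on either strand, its core TGACG or CGTCA, which every whole element also contains, and the AP-1 letters TGACTCA or TGAGTCA. The core letters were found in 7 of 9 AP-1 subunit promoters in the table (77.8%), in 6 of 7 Egr and Nr4a promoters (85.7%) and in 15 of 24 promoters of early effector genes (62.5%), against 21.2% of all 33469 promoters. In the AP-1 list the core was held by Jdp2 and Batf, which were not called, and not by Fosl2 and Fosb, which were. In the Egr and Nr4a list it was also held by Nab1, which was not called. The core letters were also found in the list of heat shock and unfolded protein genes, in 16 of 26 promoters (61.5%), a list with 2 called genes. In other lists with rises they were found in 9 of 20 promoters of the NF-kB list (45%), 5 of 12 of growth arrest genes (41.7%) and 10 of 26 of other early factors (38.5%). The shares were 6 of 18 in the phosphatase list (33.3%), 4 of 26 in the cytokines (15.4%) and 2 of 14 in CC and other chemokines (14.3%). Among the largest rises, 6 of 13 promoters held the core (46.15%). The whole element was found in 2 of 13 promoters of the largest rises, Il6 and Has1, and in 2 of 9 AP-1 subunits, Maff and Jund, against 1.83% of all promoters. The AP-1 letters were found in none of the 9 AP-1 subunit promoters and in 6 of 14 promoters of the clotting and plasminogen list (42.9%), against 4.63% of all. None of the 10 promoters of the largest falls held the core letters. A match is a run of letters and says nothing of binding. Shown are the 250 bases before the start site for the 4 named promoters with the whole element and for Nr4a1 and Egr2, which hold the core 4 times and 1 time, each read 5′ to 3′ on the strand of the gene. Capitals mark the element, its core and, in Maff, the E-box CACGTG.
Il6, chr4:5894576-5894825, minus strand: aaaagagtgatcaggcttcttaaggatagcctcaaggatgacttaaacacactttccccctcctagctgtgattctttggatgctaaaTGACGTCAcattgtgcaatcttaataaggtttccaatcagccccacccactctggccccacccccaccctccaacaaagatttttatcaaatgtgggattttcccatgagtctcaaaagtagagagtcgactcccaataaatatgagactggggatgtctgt
Has1, chr1:67378445-67378694, minus strand: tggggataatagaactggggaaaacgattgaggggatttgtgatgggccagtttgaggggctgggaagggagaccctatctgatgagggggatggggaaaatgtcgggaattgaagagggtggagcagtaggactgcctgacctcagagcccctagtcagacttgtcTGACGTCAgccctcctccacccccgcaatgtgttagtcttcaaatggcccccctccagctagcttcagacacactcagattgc
Maff, chr7:112792537-112792786, plus strand: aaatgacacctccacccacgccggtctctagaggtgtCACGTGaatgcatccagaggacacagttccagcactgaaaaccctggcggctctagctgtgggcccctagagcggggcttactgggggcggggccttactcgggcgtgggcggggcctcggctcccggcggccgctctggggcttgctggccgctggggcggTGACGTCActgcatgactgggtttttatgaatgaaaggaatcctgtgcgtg
Jund, chr16:18769772-18770021, minus strand: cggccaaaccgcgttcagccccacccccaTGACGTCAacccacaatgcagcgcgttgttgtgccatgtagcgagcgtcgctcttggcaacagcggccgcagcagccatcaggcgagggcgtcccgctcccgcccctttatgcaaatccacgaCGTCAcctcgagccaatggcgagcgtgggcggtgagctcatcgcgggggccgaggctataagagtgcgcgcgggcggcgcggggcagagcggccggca
Nr4a1, chr7:134259888-134260137, plus strand: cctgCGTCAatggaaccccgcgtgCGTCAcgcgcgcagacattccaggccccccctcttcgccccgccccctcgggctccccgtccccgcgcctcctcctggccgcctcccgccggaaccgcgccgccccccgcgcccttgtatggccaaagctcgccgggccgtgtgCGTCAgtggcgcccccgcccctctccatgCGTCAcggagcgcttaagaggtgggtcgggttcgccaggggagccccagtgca
Egr2, chr20:21054442-21054691, minus strand: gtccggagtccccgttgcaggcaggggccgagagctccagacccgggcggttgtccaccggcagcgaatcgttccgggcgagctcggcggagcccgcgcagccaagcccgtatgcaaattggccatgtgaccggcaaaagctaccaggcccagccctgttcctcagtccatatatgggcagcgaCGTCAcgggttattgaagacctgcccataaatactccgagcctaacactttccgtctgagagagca
The whole element begins 162 bases before the start site in Il6, 83 in Has1, 51 in Maff and 221 in Jund.

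Of 34 other early transcription factor genes, 15 rose, none fell, and the median was 0.64. Csrnp1, a nuclear protein induced by axin, rose from -0.33, -0.74 and -1.10 to 1.94, 2.17 and 2.10, a rise of 2.80 with a standard error of 0.19 (adjusted P = 2.15e-06). The growth regulator Myc rose from 0.60, 1.21 and 0.34 to 2.39, 2.76 and 3.02 (4.02-fold, adjusted P = 0.000293). Btg2, an antiproliferative gene, rose by 2.63 (adjusted P = 5.73e-05), Ier2 by 1.84 (0.000646), the interferon regulatory factor Irf1 by 1.55 (0.00456), Klf2 by 1.38 (0.00169), Cebpd by 1.34 (0.000683), Klf4 by 1.24 (0.000652) and Klf6 by 0.84 (0.000374). Cebpb (1.24, adjusted P = 0.0265), Nfil3 (1.42, 0.0183) and Bhlhe40 (0.95, 0.0121) rose too, but lost their calls when 5, 2 and 2 of the 6 arrays were left out in turn (adjusted P up to 0.0983, 0.0764 and 0.0575). Srf, the factor that drives many immediate early genes, differed by 0.24 and did not pass (adjusted P = 0.191).

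Early effector genes, which act outside the nucleus or on signalling proteins, held 14 rises and no fall among 27, with a median of 0.71. Rgs1, which shortens signals of G protein coupled receptors, rose from -4.94, -5.06 and -5.62 to -1.54, -2.24 and -2.46 (8.73-fold, adjusted P = 0.000284). Ccn1, a matrix-bound signal of the CCN family, rose from 1.89, 2.26 and 1.30 to 4.33, 4.42 and 3.83 (5.2-fold, adjusted P = 7.73e-05), and its second probe by 2.77. Trib1 rose by 2.65, the kinase genes Plk3 by 1.96, Sik1 by 1.86 and Sgk1 by 1.45, and Errfi1, an inhibitor of the EGF receptor, by 1.59. Arc, a neuronal early gene, rose by 0.67 and lost its call without 5 of the 6 arrays in turn (adjusted P up to 0.107).

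Genes that limit the first wave were among those that moved. Of 19 MAP kinase phosphatases, Sprouty genes and SOCS genes, 10 rose and none fell, with a median of 0.75. Dusp1, a nuclear phosphatase of p38 and JNK, had 0.35, 0.46 and -0.36 at 0 h and 3.13, 2.44 and 3.14 at 1 h (6.74-fold, adjusted P = 0.000153). Dusp5, which acts on ERK, rose from -1.09, -1.17 and -1.95 to 0.98, 1.15 and 1.20 (5.72-fold, adjusted P = 3.29e-05). Dusp2 rose by 2.57 (3.19 without array 1 of 0 h), Cish by 1.09, Spry1 by 0.94 and Dusp6 by 0.73. The count fell to 7 without array 1 of 0 h and to 6 without array 3 of 1 h. Socs2 (0.75) and Dusp8 (0.80) lost their calls without 5 of the 6 arrays in turn (adjusted P up to 0.131 and 0.148), and Cish without array 3 of 1 h (0.0584). Of 8 regulators of mRNA decay, 3 rose with a median of 0.45, namely Zfp36, Zc3h12a (regnase-1, an RNase that cuts cytokine transcripts, 1.17) and Khsrp (0.84). Zc3h12a lost its call without array 2 or 3 of 0 h or array 3 of 1 h (adjusted P up to 0.0731). Zfp36l1 (0.41, adjusted P = 0.0649) and Zfp36l2 (0.02) did not pass.

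**Figure D3:**
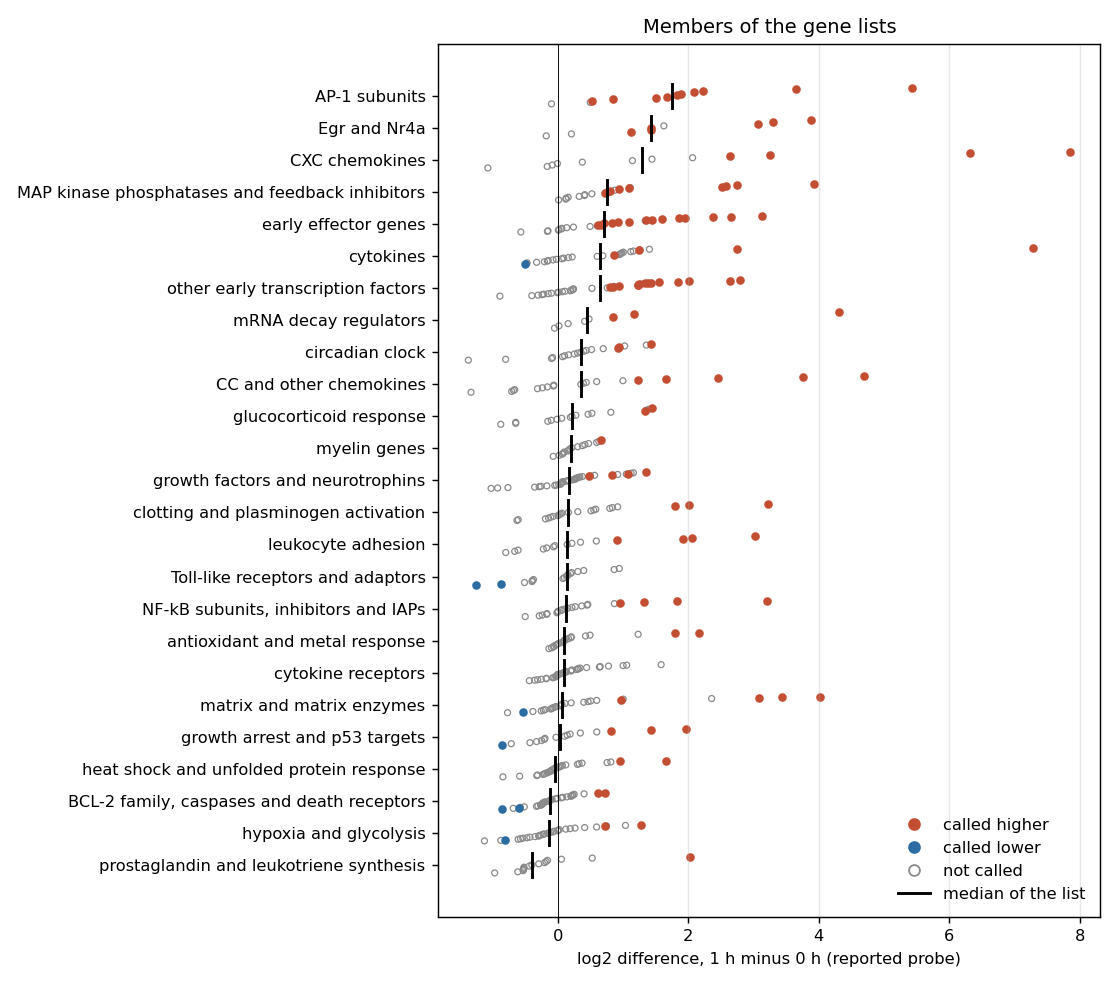
Log2 difference between 1 h and 0 h on the reported probe (horizontal axis) of each tested gene in the 25 lists (vertical axis), in red where called higher, in blue where called lower and open where not called, with a black bar at the median of the list. The medians run from 1.76 in the AP-1 subunits to -0.39 in prostaglandin and leukotriene synthesis, and the point farthest right is Cxcl2 at 7.85.

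In the NF-kB pathway, the called genes were Nfkbiz, Nfkbia, Map3k8 and Rel. Of 22 NF-kB subunits, inhibitors and inhibitor of apoptosis genes, 4 rose and none fell. Nfkbiz, a nuclear partner of NF-kB that licenses Il6, rose from -2.97, -2.33 and -2.82 to 0.79, 0.67 and 0.07, a rise of 3.21 with a standard error of 0.25 (adjusted P = 7.28e-06). Nfkbia, which holds NF-kB in the cytoplasm and is its direct target, rose from 3.15, 3.27 and 2.29 to 4.79, 4.57 and 4.83 (3.54-fold, adjusted P = 0.000332). Map3k8 rose by 1.32 (adjusted P = 0.000219). Rel, the only subunit gene called, rose by 0.95 and lost its call without array 1 or 3 of 0 h or array 3 of 1 h (adjusted P up to 0.0616). Rela (0.37), Nfkb2 (0.46) and Nfkb1 (-0.16) did not pass.

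Birc2, Birc3 and Tnfrsf1a, around which the study was built, were not called at 1 h, although Birc3 passed under some alternatives. Birc3, an inhibitor of apoptosis that acts in TNF receptor signalling, had -1.45, -1.55 and -1.41 at 0 h and -1.26, -0.23 and -0.31 at 1 h, a difference of 0.87 with a standard error of 0.25 (adjusted P = 0.0593). Array 1 of 1 h lay near the 0 h arrays, and without it the difference was 1.20 and passed (adjusted P = 0.0071). Birc3 also passed with the stricter filters on dim probes (adjusted P = 0.0421 and 0.0459), the replicate block (0.0437) and trend and robust settings (0.0383). Birc2 differed by 0.22 (standard error 0.09, adjusted P = 0.169), with all 1 h arrays (-0.74, -0.65 and -0.78) above all 0 h arrays (-0.92, -1.02 and -0.89), as in 18.9% of genes. Tnfrsf1a, the TNF receptor, differed by 0.29 (standard error 0.15, adjusted P = 0.265), and its groups overlapped. Tnf itself was not well above background on any of the 6 arrays, and no fold is given for it.

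Of 17 genes of Toll-like receptors and adaptors, none rose and 2 fell, against 3.89% and 2.21% of all genes. Tlr4, the receptor for endotoxin and for products of damaged tissue, had -0.43, -0.35 and -0.41 at 0 h and -1.45, -1.04 and -1.30 at 1 h, 1.82-fold lower (adjusted P = 0.00477), and kept its call with each of the 6 arrays left out, but not with normexp. Ticam2, the adaptor that links Tlr4 to interferon genes, was not well above background at 1 h and was at least 1.31-fold lower (adjusted P = 0.0104), but with normexp its difference had the opposite sign (0.56, not called). Myd88 (0.20), Tlr2 (0.16) and Traf6 (0.31) did not pass.

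Of 28 cytokine genes tested, 4 rose and 1 fell, with a median of 0.65. After Il6, Il1b, the fever cytokine made by macrophages and Schwann cells, rose from -1.40, -2.09 and -0.99 to 0.95, 1.39 and 1.41 (6.69-fold, adjusted P = 0.000358). Tnfsf9 rose by 0.86 (adjusted P = 0.00396). Lif, which guides injured neurons, rose by 1.24 (adjusted P = 0.0494) and lost its call without array 1 of 0 h or any single 1 h array (adjusted P up to 0.137). Tgfb1 fell by 0.49 (adjusted P = 0.0431), a call lost without 5 of the 6 arrays in turn (adjusted P up to 0.141). Cntf, the factor stored in myelinating Schwann cells, differed by 0.22. Of 34 cytokine receptors, 1 was called, against 6.09% of all genes. This was Csf1r, on a dim second probe (1.67), while its bright reported probe differed by 0.11 (adjusted P = 0.844).

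Chemokine genes held some of the largest rises. Of 12 CXC chemokines 4 rose, with a median of 1.30. Cxcl3, a close relative of Cxcl1 and Cxcl2, rose from -5.79, -5.23 and -5.27 to -2.45, -2.11 and -1.98 (9.53-fold, adjusted P = 6.54e-05). Cxcl11 rose by 2.64 (adjusted P = 0.0377), a call lost without 4 of the 6 arrays in turn (adjusted P up to 0.131). It was not well above background on all of the 6 arrays, and its difference went down to 1.12 among the alternatives. Cxcl10 differed by 2.07 and did not pass (adjusted P = 0.089). The homeostatic chemokine Cxcl12 differed by -0.08. Of 19 CC and other chemokines 5 rose and none fell. Ccl7, another monocyte attractant, rose from 0.03, 0.45 and 0.37 to 2.30, 2.81 and 3.09 (5.47-fold, adjusted P = 0.00161), and by 2.38 on its second probe. Ccl3 (1.65) and Ccl17 (1.23) rose with adjusted P of 0.0183 and 0.0254. Both lost their calls without array 1 or 2 of 0 h, when the count for the list was 3, and also Ccl3 without array 1 of 1 h and Ccl17 without array 3 of either group (adjusted P up to 0.0806 and 0.102).

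Genes of the vessel wall and of clotting held a few rises. In the list of leukocyte adhesion genes 4 of 15 rose, among them Sele (1.93) and Selp (at least 2.13-fold), the selectins of activated endothelium, and Icam1, which holds leukocytes to the vessel wall. Icam1 had 2.14, 2.02 and 2.46 at 0 h and 2.79, 3.26 and 3.29 at 1 h (1.88-fold, adjusted P = 0.00902). Sele and Selp each lost the call without 3 of the arrays in turn (adjusted P up to 0.0632 and 0.064), and the count was 2 without array 2 or 3 of 0 h or array 2 of 1 h. Of 21 clotting and plasminogen genes 3 rose. Tfpi2 rose by 1.79 (adjusted P = 0.000423), and Serpinb2 was called although it was not well above background on any of the 6 arrays, so that no fold is given, and lost the call without 5 arrays in turn (up to 0.123). Tissue factor (F3, 0.04) and the urokinase receptor Plaur (0.92, adjusted P = 0.0709) did not pass.

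Of 27 matrix genes 4 rose and 1 fell. Adamts1, a protease that cleaves versican, rose from -2.20, -2.85 and -2.61 to 0.72, 0.72 and 0.14, a rise of 3.08 with a standard error of 0.30 (adjusted P = 6.57e-05), beside Has1 and Mmp8. Tnfaip6, which links hyaluronan in inflamed tissue, rose by 0.97 on its reported probe (adjusted P = 0.0253), a call lost without 4 of the 6 arrays in turn (adjusted P up to 0.0929), and by 1.38 on its other probe (adjusted P = 0.00376). Lox, which cross-links collagen, had 4.72, 4.64 and 4.65 at 0 h and 4.09, 4.10 and 4.23 at 1 h, 1.44-fold lower (adjusted P = 0.00413), and kept its call with each array left out, but not with normexp. Timp1, known for its induction in cut nerve, differed by 0.11 and did not pass (adjusted P = 0.66). In the prostaglandin and leukotriene list, Ptgs2 (cyclooxygenase 2) was the gene called of 15, at -2.81, -2.82 and -3.16 at 0 h and -0.69, -0.66 and -1.39 at 1 h (4.06-fold, adjusted P = 0.000785). The median of that list was -0.39, and its other genes, such as Hpgd (-0.96) and Ptgs1 (-0.39), did not pass.

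Metallothioneins and a heat shock gene rose while most of their lists did not. Mt2A, a metal-binding protein induced by zinc and glucocorticoids, rose from 2.23, 2.07 and 1.74 to 4.08, 4.16 and 4.30 (4.49-fold, adjusted P = 2.12e-05). Mt1 rose by 1.80 (adjusted P = 0.000102), and these were the 2 genes called of 20 in the antioxidant and metal list, in which Hmox1 differed by 0.08. Hspa1a, the inducible HSP70, rose from 1.21, 1.13 and 1.12 to 2.89, 2.85 and 2.73 (3.17-fold, adjusted P = 3.99e-05). Of the 28 heat shock and unfolded protein genes, Hspa1a and Ppp1r15a (0.96) rose and none fell, against 3.89% and 2.21% of all genes. Hspa1a and its near-identical copy cannot be told apart by the gene name alone. In the glucocorticoid list Sgk1 and Cebpd rose of 17 genes, and Fkbp5 (-0.64) and Tsc22d3 (0.06), 2 common markers of the hormone's action, did not pass.

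Of 33 genes of the BCL-2 family, caspases and death receptors, 2 rose and 2 fell, against 3.89% and 2.21% of all genes, and the 2 falls became 0 without any single 0 h array or without array 3 of 1 h. Cflar, which blocks caspase 8, rose by 0.73 (adjusted P = 0.00473) and Mcl1, a survival member of the BCL-2 family, by 0.62 on its reported probe (adjusted P = 0.021), a call lost without array 2 or 3 of either group (adjusted P up to 0.0814), and by 1.12 on its other probe (adjusted P = 0.000151). The death gene Bbc3 (Puma) fell by 0.86 (adjusted P = 0.0295) and Casp12 fell by 0.59 (adjusted P = 0.0365). Neither fall was called without any of the 0 h arrays or without array 3 of 1 h, and Casp12 not without array 1 of 1 h (adjusted P up to 0.104 for Bbc3 and 0.122 for Casp12). Of 16 growth arrest genes, 3 rose and 1, Bbc3 again, fell. Gadd45b rose from 1.74, 1.51 and 2.08 to 3.27, 3.22 and 3.15 (2.70-fold, adjusted P = 0.000153) and Gadd45g rose by 1.96 (adjusted P = 0.000411), while Gadd45a differed by 0.15 and the p53 target Mdm2 by -0.02.

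Of 39 growth factors and neurotrophins 5 rose, on the reported probe Gdnf (1.08), Hbegf (0.83), Bmp7 (0.49) and Areg, which was not well above background on any of the 6 arrays, and Dhh on another probe (0.55), while Bdnf (0.92) did not pass. The count of that list was 3 without any single 0 h array or without array 1 of 1 h, and 2 without array 3 of 1 h. Gdnf lost the call of its reported probe without each 0 h array, and Bmp7 without 4 arrays in turn (adjusted P up to 0.0825 and 0.103), Hbegf without array 2 of 0 h (0.0776) and Areg without array 3 of 1 h (0.0597). Of 31 hypoxia and glycolysis genes Car9 (1.28) and Slc2a3 (0.73) rose and Ankrd37 fell by 0.80, against 3.89% and 2.21% of all genes. The 2 rises were not called without array 1 or 3 of 0 h or array 3 of 1 h (adjusted P up to 0.0847 and 0.103), nor the fall without array 2 of 0 h or array 3 of 1 h (0.0646). Of 19 circadian clock genes 4 rose, Nfil3, Bhlhe40, Cry2 (0.93) and Npas2, and the count was 2 without array 2 or 3 of 0 h. Npas2 was called higher on a dim probe (1.31) while its reported probe differed by -1.37 and was not called. Of 16 myelin genes Cadm4 rose (0.67, adjusted P = 0.045), a call lost without 5 of the 6 arrays in turn (adjusted P up to 0.156), and Mbp (0.63) and Pmp22 (-0.07) did not pass.

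The medians of several lists depended on the scaling. In at least 1 of the other scalings the median changed sign in the lists of CC chemokines, NF-kB, Toll-like receptors, cytokine receptors, antioxidant genes, leukocyte adhesion, growth arrest, matrix, and heat shock genes. The medians of the AP-1, Egr and Nr4a, other early factor, early effector, phosphatase, mRNA decay, CXC chemokine and cytokine lists stayed above 0 in each of them, but went down to 0.48 for CXC chemokines and 0.34 for cytokines, and to 0.38 and 0.06 under the stricter filters that ask for signal above background on every array.

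By fitted size the falls were smaller than the rises, and 4 of the 10 largest were not well above background on any 1 h array. The lowest values well above background were -5.75 to -5.37 on the 1 h arrays and -6.76 to -6.33 on the 0 h arrays. Rnase2, an eosinophil ribonuclease, had -1.39, -0.93 and -2.12 at 0 h and -5.27, -3.52 and -3.57 at 1 h, a fall of 2.64 on the log2 scale with a standard error of 0.67 (6.22-fold lower, adjusted P = 0.0367). Kera, the proteoglycan keratocan, had -2.25, -1.70 and -2.74 at 0 h and -3.92, -4.32 and -4.23 at 1 h (3.79-fold lower, adjusted P = 0.0034). Six4, a homeobox factor, had -2.69, -3.47 and -3.41 at 0 h and -4.70, -4.88 and -4.66 at 1 h (2.93-fold lower, adjusted P = 0.000404). Of the 10 largest falls, Kera, Six4 and Nr0b2 kept their calls with each of the 6 arrays left out. With normexp, 9 of the 10 lost their calls, among them Six4 (-0.003, adjusted P = 0.997), Kera (-0.72, adjusted P = 0.409) and Nr0b2, which changed sign (0.13, adjusted P = 0.893). With normexp and without array 2 of 1 h and array 2 of 3 h, whose dim probes stood apart, 7 of the 10 were not called, Nr0b2 among them (-0.54, adjusted P = 0.167), and Six4 and Kera were called and lower. Nr0b2 (SHP, a corepressor of nuclear receptors) was not well above background at 1 h and was at least 3.44-fold lower (adjusted P = 0.00855). Its probe is placed on the minus strand of chromosome 5 in rn4, while the promoter table has the gene on the plus strand. Slc30a2, a zinc exporter, lay at -3.36, -4.31 and -1.72 at 0 h and was not well above background at 1 h, at least 4.89-fold lower (adjusted P = 0.0173), a call lost without array 1 of 1 h (0.0637). Its fitted difference was -2.34, and -1.63 without array 3 of 0 h. The repressor Gfi1 was at least 1.68-fold lower (adjusted P = 0.0182), a call lost without array 2 of 0 h or array 1 of 1 h (up to 0.0759). For Rgs9 the 1 h arrays were not well above background and the bound gives no fold. Cilp, a cartilage matrix protein, fell by 1.40 (2.65-fold lower, adjusted P = 0.0132) from a bright level of 4.72, 4.0 and 3.81, and Isl1 fell by 1.42 (adjusted P = 0.0369). At 1 h Isl1 was well above background on 1 of 3 arrays and Rnase2 on 2 of 3. The second probes of Cilp (-1.29, adjusted P = 0.0577) and Slc30a2 (-1.05, adjusted P = 0.187) did not pass.

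Ddit4l, a stress gene that inhibits mTOR, fell by 2.52 (adjusted P = 0.0453), from 1.09, -1.58 and -1.37 at 0 h to -3.61, -2.95 and -2.85 at 1 h. Its high 0 h value was that of array 1, the array with the high muscle genes, and without that array the difference was -1.66 and did not pass (adjusted P = 0.139). The Ddit4l probe is placed on chromosome 3 of rn4, minus strand, while the promoter table has the gene on chromosome 2, plus strand. Whether the probe reads Ddit4l was not tested. Rnase2, Isl1 and Rgs9 lost their calls without 5, 5 and 4 of the 6 arrays in turn, and Ddit4l without 5. Without the same array 1 of 0 h the calls of Rnase2 (-2.59, adjusted P = 0.0936), Isl1 (-1.55, adjusted P = 0.0641), Cilp (-1.13, adjusted P = 0.0532) and Rgs9 (adjusted P = 0.0576) were lost too.

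Markers of the cells that a nerve segment can hold were measured on the same arrays. Their counts stand against 3.89% of all genes called higher and 2.21% called lower. Schwann cell markers were all well above background on all arrays, as nerve tissue should have them, and 2 of 16 rose, Egr2 and Gfap (1.34, adjusted P = 0.00126). The summed Schwann cell level lay between 867.7 and 1027.4 on the 0 h arrays and between 964.9 and 1159.7 on the 1 h arrays. Of 13 neutrophil markers 4 rose and none fell, with a median of 1.25, which was 0.83 in the deposited matrix, 0.86 with quantile normalization and 0.63 with normexp without array 2 of 1 h and array 2 of 3 h. S100a8, a calcium-binding protein packed in neutrophils, rose from -2.70, -2.87 and -2.92 to -0.46, 0.40 and 0.28 (7.48-fold, adjusted P = 0.000497), and S100a9 rose from -2.10, -2.07 and -3.06 to 0.04, 1.13 and 0.82 (8.42-fold, adjusted P = 0.00089). The summed neutrophil level lay between 2.1 and 3.0 on the 0 h arrays and between 5.0 and 6.7 on the 1 h arrays, and Elane and Ltf, granule genes made in the bone marrow, were not well above background on any of the 6 arrays. The part of neutrophils in the rises of chemokines, Il1b and Mmp8 was not tested.

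Of 14 macrophage markers, Aif1 fell by 0.55 (adjusted P = 0.0236), a call lost without array 2 or 3 of 0 h or array 1 of 1 h, Csf1r was called higher on its second probe as given above, and Cd68 (-0.64, adjusted P = 0.0944) and Adgre1 (-0.64, adjusted P = 0.0754) did not pass. The 3 arrays of 1 h lay below the 3 of 0 h for 7 of the 14 macrophage markers, against 11.6% of all genes. Their median was -0.35, 2 markers lay wholly higher at 1 h, and the summed level of the list was 204.0, 217.2 and 239.8 before and 262.4, 249.0 and 235.6 after 1 h, so that the groups overlap. Endothelial markers gave 1 call of 12, the VEGF receptor Flt1 (0.81, adjusted P = 0.0295), a call lost when array 1 or 2 of 0 h or array 2 or 3 of 1 h was left out. Lymphocyte markers gave 1 call of 11, Cd3d (1.1, adjusted P = 0.0336), which was lost without any single 0 h array or array 1 of 1 h, and smooth muscle and pericyte markers 1 of 8, Kcnj8 (0.44, adjusted P = 0.0357), which was lost without each of the 6 arrays. Limma called 0 of the fibroblast, mast cell, adipocyte, erythroid and neuron markers, of which 1, 3, 3, 1 and 3 had an unadjusted P-value under 0.05, as did 7419 of all 32109 probes tested. The summed mast cell level lay between 24.2 and 29.0 before and between 17.3 and 22.2 after 1 h, and the summed neuron level between 9.97 and 11.3 before and between 8.29 and 9.17 after. Erythroid levels summed to 270.7, 267.8 and 94.6 at 0 h and to 234.0, 319.7 and 363.1 at 1 h, so array 3 of 0 h had the least. Of 14 skeletal muscle markers limma called 0, and 1 had an unadjusted P-value under 0.05, with a median of -4.49 and standard errors up to 3.69.

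**Figure D4:**
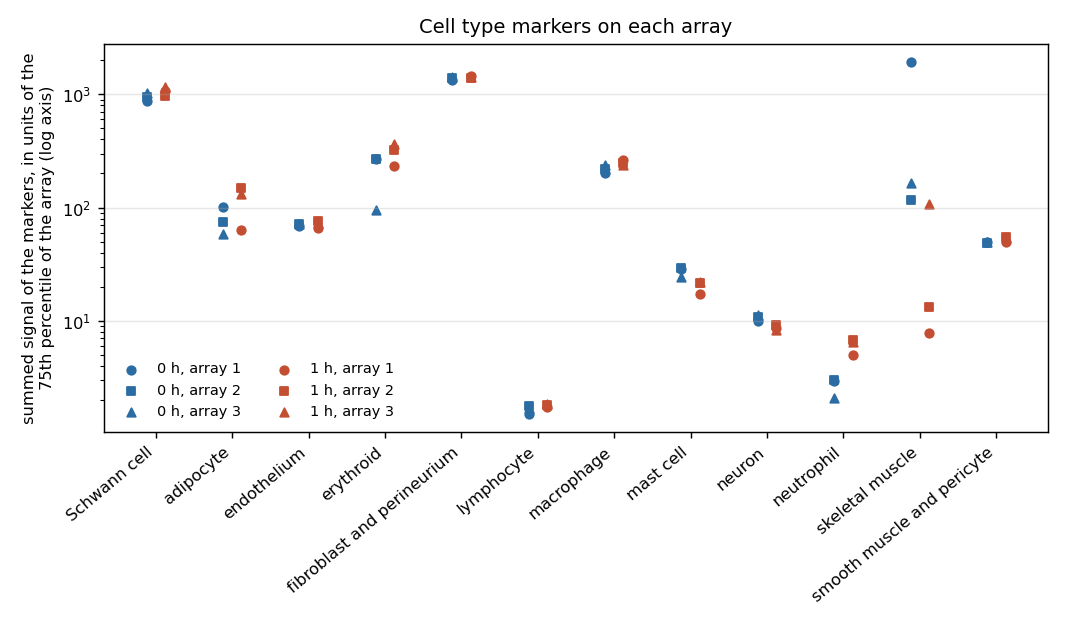
Summed level of the markers of each cell type (vertical axis, log scale, in units of the 75th percentile of the array) on the 3 arrays of 0 h (blue) and the 3 of 1 h (red), with the symbol giving the array number. Skeletal muscle spans from 7.8 to 1948.6 with array 1 of 0 h highest, neutrophil markers lie at 2.1 to 3.0 at 0 h and 5.0 to 6.7 at 1 h, and the Schwann cell, macrophage, endothelial, fibroblast, adipocyte and erythroid sums of the groups overlap.

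The neighbouring time-points place the 1 h values in time. The 0.5 h arrays were scanned on the same day as the 0 h arrays but lay on other slides, and 1797 genes were called between them (6.61%). The 3 h arrays were scanned on the same day as the 1 h arrays, again on other slides, and 2995 genes were called between these (11%). Slide cannot be told apart from time in either comparison. The 0.5 h and 1 h arrays were scanned on different days and lay on different slides, and limma called 0 genes between them (0%), with 4198 of 32109 probes at an unadjusted P-value under 0.05. Array weights gave 324 genes for that step, and the trend and robust settings and the stricter filters 12 to 15. The comparisons share the 0 h or the 1 h arrays with the comparison of 1 h with 0 h, so they are not independent of it and only the values are set side by side. The count for 0.5 h was 1108, 669 and 1060 without arrays 1, 2 and 3 of 0 h. With normexp 127 genes were called at 0.5 h and 281 between 1 h and 3 h, and 1056 and 1386 with normexp without array 2 of 1 h and array 2 of 3 h.

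Fos was 5.69 higher on the log2 scale at 0.5 h than at 0 h (adjusted P = 5.23e-07) and 5.43 higher at 1 h, and then fell by 2.60 between 1 h and 3 h (adjusted P = 0.000345). Egr1 differed from 0 h by 3.85 at 0.5 h and 3.88 at 1 h and fell by 2.02 from 1 h to 3 h, and Zfp36 differed by 4.63 and 4.32 and fell by 1.51. Jun (fall of 1.56), Atf3 (1.12) and Dusp1 (1.74) also came down from 1 h to 3 h. At 0.5 h these 3 had differed from 0 h by 1.93, 1.93 and 2.74. Cxcl2 differed from 0 h by 7.20 at 0.5 h and 7.85 at 1 h, and from 1 h to 3 h by -0.24 (adjusted P = 0.623, not called). The differences of Cxcl1 (0.07) and Ccl20 (0.24) over the same step were not called either. Il6 rose by a further 1.65 from 1 h to 3 h (adjusted P = 0.00126), Ccl2 by 1.31 (adjusted P = 0.00318) and Cxcl3 by 2.94 (adjusted P = 0.00012). Fosl1 was 0.12 above 0 h at 0.5 h, which did not pass (adjusted P = 0.833), 1.84 above it at 1 h, and rose by 4.50 from 1 h to 3 h (adjusted P = 1.07e-06). Birc3 rose by 0.96 (adjusted P = 0.0255) and Birc2 by 0.80 (adjusted P = 0.000162) between 1 h and 3 h.

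**Figure D5:**
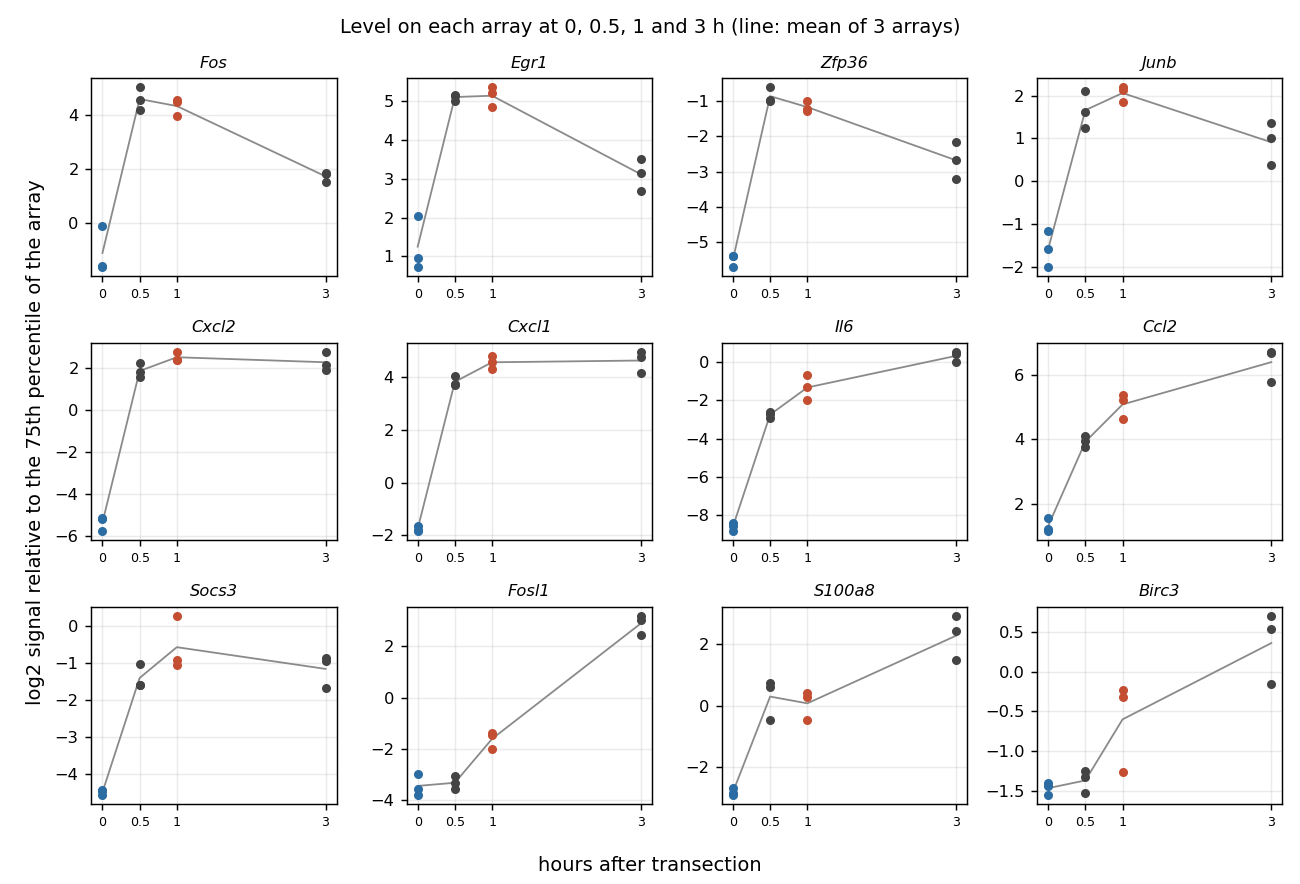
Log2 level relative to the 75th percentile of the array (vertical axes, each with its own range) on each of the 3 arrays at 0, 0.5, 1 and 3 h after transection (horizontal axes) for 12 genes, with a line through the means. Fos, Egr1, Zfp36 and Junb are lower at 3 h than at 1 h, the Il6, Ccl2, S100a8 and Birc3 arrays are higher on average at 3 h, and the Fosl1 arrays of 0.5 h overlap those of 0 h while those of 1 h lie above both.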

How the data were processed

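Total RNA of proximal nerve segments was labelled with Cy3 and hybridized to 1-colour Agilent rat arrays. The authors deposited scanner intensity values (Feature Extraction 10.5.1.1 per the file headers, probes placed on rn4, background subtracted and detrended) and a matrix of log2 values that, from its values, was quantile normalized. Here the log2 processed intensity minus the 75th percentile of each array was used, without control spots and outlier spots, and the spots of a probe were averaged. Depth has no counterpart on arrays, where 3 arrays in each group limit the precision. A probe was tested if some time-point had all of its 3 arrays clearly over background. The 18 arrays were fitted with 6 time-point means in limma 3.58.1 (R 4.3.3, version 1.17.8 of data.table). A call required P under 0.01, and under 0.05 after Benjamini-Hochberg adjustment, and a gene was called if any tested probe was. The reported probe of a gene is the tested probe with the highest mean over the 18 arrays.

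Probes were named through RefSeq by accession (16336 probes, and 379 by another accession), symbol (3532) or synonym (1060), and 19705 kept the name in the files. Named are the 15 largest rises and 10 largest falls among genes with a listed symbol, a called reported probe and groups that did not overlap, members of the gene lists, and Birc2, Birc3 and Tnfrsf1a. The members and lists were chosen with earlier results of these data known. An exact permutation test of 3 against 3 arrays cannot go below 0.1 and was not used. In data simulated for the comparison of 1 h with 0 h (31910 probes, 50 changed at each size), 22%, 56%, 88% and 98% of changes of 0.5, 1, 2 and 4 on the log2 scale were recovered, and 4 other probes were called. The simulated noise was independent and normal for each probe, without array, slide or muscle differences. These rates therefore need not hold for the real arrays, where the count moved between 774 and 1582 with single arrays left out. There were 22 alternatives, covering background correction, normalization, filters, the model, and arrays left out. The methods of the study name a random variance F-test over all time-points, for which limma's moderated test stands here. Some genes of the lists are counted but not reported by name here.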

Additional observations from a re-analysis of the deposited data

How the results depend on the processing

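Against 1656 genes called at 1 h (1058 higher, 601 lower), normexp background correction gave 205 (168 higher, 37 lower), with 56 list genes in place of 113, 127 genes at 0.5 h and 281 between 1 h and 3 h. The 5th percentile under normexp was -1.79 on array 2 of 1 h and -0.91 on array 2 of 3 h against -4.77 to -3.91 on the others. Without both arrays, a choice made after seeing the data, normexp called 1642, with 108 list genes, 1056 at 0.5 h and 1386 between 1 h and 3 h. A fit of only the 6 arrays called 2820 (2497 higher, 324 lower). Array weights gave 3205 (2118 and 1101), 3951 at 0.5 h and 324 between 0.5 h and 1 h. A median shift gave 1467 lower genes, no filter on dim probes 398 lower genes, and a 2-fold minimum 617 (538 and 79). The cause of these differences was not tested. Arrays left out singly gave 774 to 1582 calls, 537 to 988 higher, 237 to 596 lower, 86 to 106 list genes, 669 to 2287 at 0.5 h, 0 to 4 between 0.5 h and 1 h and 2053 to 3108 between 1 h and 3 h.

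Under normexp the differences of Gfi1 (0.53), Nr0b2 (0.13), Isl1 (0.24), Rgs9 (0.72) and Ticam2 (0.56) had the opposite sign, and without those 2 arrays all 5 were negative (-0.18, -0.54, -0.41, -0.03 and -0.14) and not called. Of 275 values for the 15 largest rises, 261 kept direction and call and 14 kept direction alone. Of 178 for the 10 largest falls, 130 kept both, 44 kept direction alone and 4 were opposite. Birc3 passed with the stricter filters (adjusted P = 0.0421 and 0.0459), the replicate block (0.0437), trend and robust settings (0.0383) and without array 1 of 1 h (0.0071), and lay above the threshold elsewhere. Array numbers did not pair the groups, since the deviations of same-numbered arrays correlated at -0.24, 0.13 and -0.26. With the replicate block 1882 genes were called, and Ddit4l, Isl1, Cxcl11 and Socs2 lost their calls.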
